A study of Mus musculus with 4 samples.

Results

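The mitosis and G2/M genes are 38 genes whose products carry a cell from the end of DNA replication through chromosome segregation and division, from the cyclins and their kinase CDK1 to the motors of the spindle. They were chosen by gene symbol from a list, and all 38 were found among the 24346 symbols of the deposited files. They were measured by RNA sequencing in dorsal skin of male C57BL/6 mice, which began the diet at 8 weeks of age. The Cont-IMQ group received a high-fat, high-cholesterol diet with bile salt (NASH diet) for 3 weeks and then imiquimod (IMQ) cream for 1 day. The 7KC-IMQ group received the same diet with the oxysterol 7-ketocholesterol (7KC) added and the same cream. There were 4 libraries, 2 in each group, and every library came from IMQ-treated skin, so skin without IMQ is not part of the comparison. The labels do not say whether a library came from 1 animal, and p-values measure only the spread between these libraries.

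Entry into mitosis is driven by CDK1 bound to cyclin A or cyclin B. The mRNAs of most mitotic proteins are made late in each cell cycle, when the factors FOXM1 and B-MYB act with the MuvB complex at a promoter element called CHR (cell cycle genes homology region), and many of these promoters also hold CCAAT boxes that bind NF-Y. Some of the proteins are destroyed again at the end of mitosis by the anaphase-promoting complex. In skin, dividing cells are found mainly in the basal layer of the epidermis and in the matrix of growing hair follicles, and a thickened, hyperproliferative epidermis is the hallmark of psoriasis. In a whole-skin sample, fewer dividing cells and less mRNA per dividing cell cannot be told apart.

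The values are FPKM, in which the reads of a gene are scaled by its exon length and by the total of the library, so that levels can be compared between genes. Differences are given on the log2(FPKM + 1) scale as 7KC-IMQ minus Cont-IMQ. Depth was estimated from the low values at 15000000 to 16290000 reads per library, and 73.5% to 75.4% of the low genes used lay within 0.1 of a whole number of reads, where chance gives 20%. By the length of the longest coding transcript, the members were measured with an estimated 65 to 2918 reads per library, with a median of 454.5, and at that median the counting error is 4.69% of the value. No member was listed at 0 or at 3 reads or fewer. Epidermal keratins were abundant in every library, with 2544 to 3062 FPKM for *Krt5* and 4132 to 5700 FPKM for *Krt14*, as the tissue label says. A comparison of 2 libraries with 2 by an exact permutation test cannot give a two-sided p-value below 0.333, and the tests below are those of limma, which borrows the spread across all 15896 genes tested.

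The mitosis and G2/M genes lay higher in the 7KC-IMQ group on balance, by a small amount, and none passed the adjusted threshold. Of the 38 members, 33 had a higher mean FPKM in the 7KC-IMQ group, where the difference was above 0 in 48.7% of all genes tested. The median difference was 0.21 against -0.0056 over all genes tested. In 19 members the lower of the 7KC-IMQ values exceeded the higher of the Cont-IMQ values, where 23.9% of all genes tested were separated in this way, and none was separated in the other direction, against 22.9% of all genes. By limma, 0 members passed an adjusted p-value of 0.05 in either direction, as did 0% of all genes tested among those higher and 0.00629% among those lower. The adjusted p-values ran from 0.352 to 0.998. At an unadjusted p-value under 0.05, 6 members were higher and 0 lower, where 7.5% of all genes tested were higher and 5.47% lower. Over the 9351 genes tested whose mean FPKM lay in the range of the members (2.54 to 46.8), 24.1% were higher without overlap and the median difference was -0.0047.

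**Figure D1:**
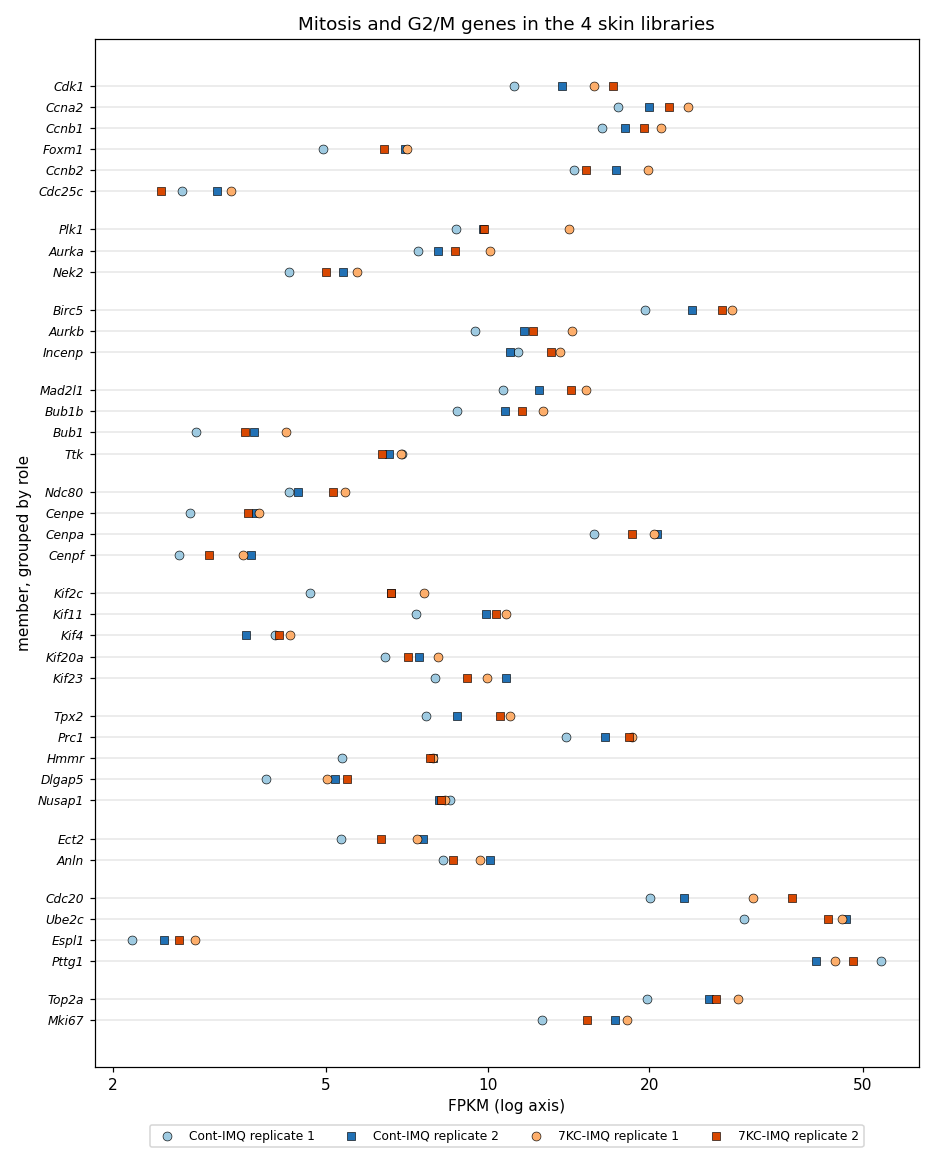
FPKM (log axis) of each of the 38 mitosis and G2/M genes in the 4 libraries, grouped by role and ordered by difference within a role. Blue marks are Cont-IMQ and orange marks 7KC-IMQ; circles are replicate 1 and squares replicate 2. Cont-IMQ replicate 1 holds the lowest value in 32 members.

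The 4 libraries did not share the difference evenly. Cont-IMQ replicate 1 held the lowest value of the 4 libraries in 32 of the 38 members, and 7KC-IMQ replicate 1 held the highest value in 25. The 2 control libraries differed from each other by as much as the groups did, since Cont-IMQ replicate 2 was above replicate 1 in 33 members, with a median of 0.26. Against Cont-IMQ replicate 2, 7KC-IMQ replicate 1 was higher in 30 members (median 0.15), whereas 7KC-IMQ replicate 2 was higher in 22 (median 0.027). The difference between the group means was larger than the difference between the replicates of either group in 14 members. No such count was made over all genes tested, so these 14 have no background to be read against. The count of members with an unadjusted p-value under 0.05 followed the library left out. It was 1 without Cont-IMQ replicate 1 (7.49% of all genes tested) and 16 without Cont-IMQ replicate 2 (7.06%). It was 1 without 7KC-IMQ replicate 1 (4.27%) and 2 without 7KC-IMQ replicate 2 (2.09%). The median difference in the same order was 0.089, 0.32, 0.14 and 0.27. Without Cont-IMQ replicate 1, 21 members were higher without overlap and 7 lower, against 38.5% and 39.1% of all genes tested. Without Cont-IMQ replicate 2, 34 were higher and 3 lower, against 38.8% and 38.6%. Without 7KC-IMQ replicate 1, 20 were higher and 2 lower, against 35.8% and 35.2%, and without 7KC-IMQ replicate 2, 27 were higher and 0 lower, against 33.3% and 33.5%. Rescaling each library to the same FPKM sum lowered the differences over all genes tested (median -0.066). In that scaling, 15% of all genes tested were higher and 32.1% lower without overlap. Under that scaling 7 members (18.4%) were higher without overlap and 1 lower, and at an unadjusted p-value under 0.05, 1 member was higher and 0 lower, against 4.01% and 7.73% of all genes tested.

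**Figure D2:**
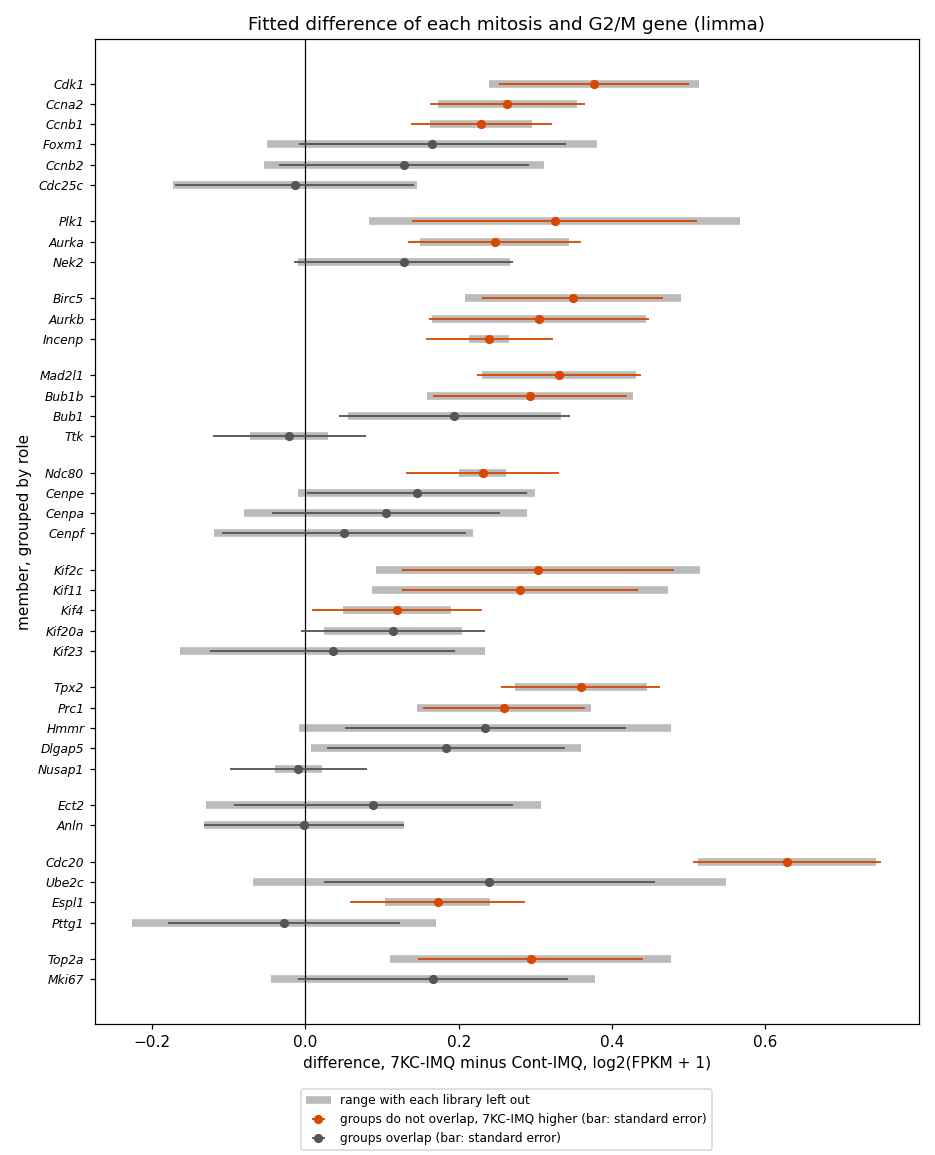
Fitted difference of each member (7KC-IMQ minus Cont-IMQ, log2(FPKM + 1)), with its standard error in limma as a thin bar and the range over the fits that leave out each library as a thick grey bar. Orange marks the 19 members whose groups do not overlap. *Cdc20* has the highest difference, at 0.63, and 5 members have a difference below 0.

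*Cdc20* (chromosome 4 of GRCm38, 118432901 to 118437352) encodes the activator through which the anaphase-promoting complex is switched on at anaphase and is the target of the spindle checkpoint. It measured 20.1 FPKM in the control replicate 1 and 23.2 in replicate 2, and 31.2 and 36.9 FPKM in the corresponding 7KC libraries. Values below are given in this order, with Cont-IMQ before 7KC-IMQ and replicate 1 before replicate 2. The groups did not overlap, and the mean was 57.2% higher in the 7KC-IMQ group. The difference was 0.63 (standard error 0.12, limma, adjusted p = 0.352), the highest among the members, and it stayed between 0.51 and 0.74 whichever library was left out. The annotated gene *Gm7856* shares 4.40% of the 75-base stretches of its sequence, and its exons overlap those of *Elovl1* on the other strand. *Elovl1* measured 254 and 263 FPKM in the controls, and 247 and 274 FPKM under 7KC, with overlap between the groups.

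Promoter letters were searched in the 250 bases before the gene start, which RefSeq (GRCm38.p6) gave for 30 of the 38 members. The CHR letters TTTGAA were found on either strand in 11 of the 30 (36.7%), against 13.2% of the 11913 genes tested that had a window and 16.0% of all 32851 windows. CCAAT was found on either strand in 23 (76.7%), against 39.3% of those genes and 33.8% of all windows. Both were found in 10 (33.3%), against 4.96% of those genes and 5.55% of all windows. The motifs were searched separately, and adjacent matches can share a T. The S-phase genes described below held TTTGAA in 6 of 37 (16.2%) and CCAAT in 22 of 37 (59.5%). The 100 bases before the start are shown for 5 members with the smallest unadjusted p-values by limma among those with a TTTGAA match. That choice favours large differences, so their lying higher together is no result about the letters, and none passed the adjusted threshold. The sequences show how closely CHR and CCAAT letters sit to the start of these genes. They are written 5′ to 3′ along the gene, where capitals mark each match of either motif on either strand. *Kif2c*, the next by that order, is not shown, because its window lies wholly inside the gene as annotated by GENCODE.
Cdc20, chr4:118437344-118437443, minus strand: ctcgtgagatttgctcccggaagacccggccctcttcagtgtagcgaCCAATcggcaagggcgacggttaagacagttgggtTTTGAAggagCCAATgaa
Cdk1, chr10:69352913-69353012, minus strand: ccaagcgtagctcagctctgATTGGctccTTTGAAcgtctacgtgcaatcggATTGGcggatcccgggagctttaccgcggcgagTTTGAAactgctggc
Prc1, chr7:80294376-80294475, plus strand: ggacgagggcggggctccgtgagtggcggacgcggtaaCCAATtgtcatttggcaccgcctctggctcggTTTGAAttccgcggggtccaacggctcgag
Top2a, chr11:99024190-99024289, minus strand: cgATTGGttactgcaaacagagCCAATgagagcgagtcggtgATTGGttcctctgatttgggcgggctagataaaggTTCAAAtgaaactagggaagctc
Kif11, chr19:37376282-37376381, plus strand: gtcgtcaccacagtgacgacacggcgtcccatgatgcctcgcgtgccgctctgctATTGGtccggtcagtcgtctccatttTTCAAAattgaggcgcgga
In these 5 windows the CHR letters nearest the RefSeq start begin 15 to 30 bases before it. The GENCODE annotation places the starts of *Cdc20*, *Cdk1* and *Prc1* at bases 118437352, 69352938 and 80294450, inside the windows shown. By that annotation, the CHR letters of *Cdk1* nearest the RefSeq start lie inside the gene, and those of *Prc1* reach into it. The 11 members with a TTTGAA match had a median difference of 0.26, and 7 of them were higher without overlap. The 19 members with a window and no match had a median of 0.15, and 8 were higher without overlap. Over all genes tested, 23.9% were higher without overlap. A match to these letters is a description of the sequence, and whether the group with a match differed from the rest was not tested.

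Among the cyclins, CDK1 and its activators, 3 of 6 members were higher without overlap, where 23.9% of all genes tested were. The roles hold only 2 to 6 members each, and no difference between roles was tested. *Cdk1*, the kinase that starts mitosis, measured 11.2 and 13.8 FPKM in the controls, and 15.8 and 17.1 FPKM under 7KC, which did not overlap (difference 0.38, standard error 0.12, limma, adjusted p = 0.365), and the difference was 0.24 without Cont-IMQ replicate 1. *Ccna2* and *Ccnb1*, which encode cyclin A2 and cyclin B1, also differed without overlap, by 0.26 (0.17 without Cont-IMQ replicate 1) and 0.23, whereas *Ccnb2*, which encodes cyclin B2, overlapped. The exons of *Ccna2* overlap those of *Exosc9* on the other strand. *Exosc9* measured 19.7 and 16.6 FPKM in the controls, and 20.8 and 21.8 FPKM under 7KC, without overlap between the groups. Its part in the values of *Ccna2* was not tested. The windows of *Ccnb1* are shared to 18.9% with annotated pseudogenes and other genes, so some of its reads can be assigned elsewhere. *Cdc25c*, the phosphatase that removes the inhibitory phosphates from CDK1, measured 2.69 and 3.13 FPKM in the controls, and 3.32 and 2.46 FPKM under 7KC. Its 7KC-IMQ libraries were the highest and the lowest of the 4, and its difference was -0.014. *Foxm1*, the transcription factor of this programme, measured 4.93 and 7.00 FPKM in the controls, and 7.07 and 6.39 FPKM under 7KC, so Cont-IMQ replicate 1 alone stood apart.

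All 3 members of the chromosomal passenger complex were higher without overlap, where 23.9% of all genes tested were. This complex of Aurora B kinase with survivin and INCENP corrects faulty attachments of chromosomes to the spindle. *Birc5*, which encodes survivin, measured 19.6 and 24.0 FPKM in the controls, and 28.5 and 27.3 FPKM under 7KC (difference 0.35, standard error 0.12, limma, adjusted p = 0.366), and the difference was 0.21 without Cont-IMQ replicate 1. *Incenp* had 11.4 and 11.0 FPKM against 13.7 and 13.1 FPKM, and here both control libraries lay close together. Its difference of 0.24 ran from 0.21 to 0.27 with each library left out. *Aurkb*, which encodes Aurora B, differed by 0.30 without overlap (0.16 without Cont-IMQ replicate 1 and 0.19 without 7KC-IMQ replicate 1).

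Of the other mitotic kinases, *Plk1* measured 8.74 and 9.78 FPKM in the controls, and 14.2 and 9.85 FPKM under 7KC. The groups did not overlap, but 7KC-IMQ replicate 2 lay next to Cont-IMQ replicate 2, and the difference of 0.33 dropped to 0.083 without 7KC-IMQ replicate 1 and was 0.57 without 7KC-IMQ replicate 2. *Nek2*, a kinase of centrosome separation, had 4.27 and 5.38 FPKM against 5.71 and 4.99 FPKM, which overlapped. *Aurka*, the Aurora kinase of the spindle poles, differed by 0.25 without overlap (0.15 without 7KC-IMQ replicate 1).

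The spindle assembly checkpoint holds back anaphase until every chromosome is attached. *Mad2l1*, which encodes the MAD2 protein that binds CDC20, measured 10.7 and 12.4 FPKM in the controls, and 15.2 and 14.3 FPKM under 7KC (difference 0.33, standard error 0.11, limma, adjusted p = 0.365). *Ttk*, the checkpoint kinase also called MPS1, had 6.94 and 6.54 FPKM against 6.89 and 6.36 FPKM, and its values hardly separated any of the libraries. *Bub1b*, which encodes BUBR1, differed by 0.29 without overlap (0.16 without Cont-IMQ replicate 1), and *Bub1*, a kinase of the same checkpoint, by 0.19 with overlap.

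Of the 4 centromere and kinetochore members, 1 was higher without overlap, close to the 23.9% of all genes tested. *Ndc80*, which encodes the kinetochore subunit that grips microtubules, measured 4.26 and 4.44 FPKM in the controls, and 5.41 and 5.15 FPKM under 7KC. It did not overlap, and its difference of 0.23 ran from 0.20 to 0.26 with each library left out. *Cenpf*, which encodes a large protein of the outer kinetochore, had 2.66 and 3.63 FPKM against 3.50 and 3.03 FPKM, with the control libraries outside the 7KC-IMQ libraries. *Cenpa*, the histone variant of centromeres, and *Cenpe*, a kinetochore motor, overlapped as well, with differences of 0.10 and 0.15.

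The mitotic kinesins are motors that slide or shorten microtubules, and 3 of 5 were higher without overlap, against 23.9% of all genes tested. *Kif2c*, a microtubule depolymerase of the centromere, measured 4.67 and 6.60 FPKM in the controls, and 7.62 and 6.61 FPKM under 7KC, so the separation from Cont-IMQ replicate 2 was narrow. Its difference was 0.092 without Cont-IMQ replicate 1 and 0.52 without Cont-IMQ replicate 2. *Kif23*, a motor of the central spindle, had 7.97 and 10.8 FPKM against 9.95 and 9.16 FPKM, and it overlapped. *Kif11* (difference 0.28), the motor that separates the spindle poles, and *Kif4* (0.12), a chromosome-bound motor, did not overlap, and *Kif20a* (0.11), a motor of cytokinesis, did. The difference of *Kif11* was 0.087 without Cont-IMQ replicate 1 and 0.47 without Cont-IMQ replicate 2, and that of *Kif4* was 0.19 and 0.049. The exons of *Kif4* overlap those of *Pdzd11* on the other strand. *Pdzd11* measured 46.5 and 42.6 FPKM in the controls, and 50.8 and 47.5 FPKM under 7KC, without overlap between the groups. The libraries had the same order in *Pdzd11* and *Kif4*, and the part of *Pdzd11* in the values of *Kif4* was not tested.

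Of the spindle microtubule proteins, *Tpx2* separated the groups and *Nusap1* did not. *Tpx2*, which encodes the activator of Aurora A on the spindle, measured 7.66 and 8.76 FPKM in the controls, and 11.0 and 10.6 FPKM under 7KC (difference 0.36, standard error 0.10, limma, adjusted p = 0.356). *Nusap1*, a microtubule-bundling protein, had 8.52 and 8.13 FPKM against 8.34 and 8.19 FPKM, and the 7KC-IMQ libraries lay between the control libraries. *Prc1*, the bundler of the central spindle, differed by 0.26 without overlap (0.15 without Cont-IMQ replicate 1). *Hmmr* and *Dlgap5*, which encode spindle assembly factors, overlapped.

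The cytokinesis members did not separate the groups. *Ect2*, which encodes the exchange factor that activates RhoA at the division plane, measured 5.33 and 7.57 FPKM in the controls, and 7.38 and 6.32 FPKM under 7KC. *Anln*, which encodes the ring scaffold anillin, had 8.26 and 10.1 FPKM against 9.66 and 8.62 FPKM, and its difference was -0.0020. In both genes the control libraries were the lowest and the highest of the 4.

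Apart from *Cdc20*, the members of the anaphase-promoting complex pathway with the highest FPKM did not separate the groups. *Pttg1*, which encodes securin, the inhibitor of separase, had the highest mean FPKM of all members, at 54.1 and 40.9 FPKM in the controls, and 44.3 and 48.0 FPKM under 7KC. *Ube2c*, which encodes the ubiquitin-conjugating enzyme of the complex, had 30.0 and 46.6 FPKM against 45.7 and 43.1 FPKM. Its lowest library was Cont-IMQ replicate 1, by a wide margin. Its exons overlap those of the muscle gene *Tnnc2* on the other strand, which measured 1211 and 952 FPKM in the controls, and 896 and 1089 FPKM under 7KC. The order of *Tnnc2* over the libraries was not that of *Ube2c*, and its part in the values was not tested. *Espl1*, which encodes separase, the protease that opens cohesin, had the lowest mean FPKM of the members and differed by 0.17 without overlap (0.10 without Cont-IMQ replicate 1).

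*Top2a* and *Mki67* are the usual markers of cycling cells. *Top2a*, which encodes the topoisomerase that untangles sister chromatids, measured 19.8 and 25.8 FPKM in the controls, and 29.3 and 26.6 FPKM under 7KC, without overlap (difference 0.29, standard error 0.15, limma, adjusted p = 0.477). That difference was 0.11 without Cont-IMQ replicate 1 and 0.48 without Cont-IMQ replicate 2. *Mki67*, which encodes the Ki-67 antigen, had 12.6 and 17.2 FPKM against 18.2 and 15.3 FPKM and overlapped. Its difference of 0.17 became -0.045 without Cont-IMQ replicate 1.

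Exons of 12 members overlap another gene (10 on the other strand and 2 on the same), and in 4 members more than 1% of the windows occur elsewhere. Among the 25 members with neither, a subset chosen after seeing the data, 12 were higher without overlap, against 23.9% of all genes tested. Their median difference was 0.19.

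The same pathway holds 125 further G2/M genes that were listed by function and are not members. None passed the adjusted threshold by limma. Of the 125, 9 were higher and 0 lower at an unadjusted p-value under 0.05, which is 7.2% and close to the 7.5% of all genes tested. Without overlap, 61 were higher and 5 lower (48.8% and 4%), against 23.9% and 22.9% of all genes tested. Their median difference was 0.13. Without Cont-IMQ replicate 1, 69 were higher and 23 lower without overlap, against 38.5% and 39.1% of all genes tested, and the median was 0.057. Without Cont-IMQ replicate 2, 96 were higher and 10 lower, against 38.8% and 38.6%, and the median was 0.19. Without 7KC-IMQ replicate 1, 72 were higher and 15 lower, against 35.8% and 35.2%. Without 7KC-IMQ replicate 2, 86 were higher and 11 lower, against 33.3% and 33.5%. The median was 0.11 without 7KC-IMQ replicate 1 and 0.15 without 7KC-IMQ replicate 2. The number higher at an unadjusted p-value under 0.05 by limma rose without Cont-IMQ replicate 2 and fell without each other library. With the same FPKM sum, 18 were higher and 12 lower without overlap (14.4% and 9.6%), and the median was 0.063. Under that scaling, 15% of all genes tested were higher and 32.1% lower without overlap. The largest differences without overlap were in *Mybl2*, *Ncapg*, *Cdca5*, *Cks1b* and *Cdca8*. *Mybl2* encodes B-MYB, which switches on late cell cycle genes, and measured 3.32 and 4.17 FPKM in the controls, and 5.75 and 5.45 FPKM under 7KC (difference 0.48, standard error 0.13, limma, adjusted p = 0.356). The others differed by 0.36 to 0.43, and they encode a condensin subunit (*Ncapg*), sororin, which protects cohesion (*Cdca5*), a CDK-binding protein (*Cks1b*) and borealin, the fourth subunit of the passenger complex (*Cdca8*). Of the 8 condensin genes, 5 were higher without overlap and all had a difference above 0. Of the 17 genes of the anaphase-promoting complex and its partners, 6 were higher and 2 lower without overlap.

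The S-phase genes, 46 genes of DNA replication, showed another arrangement of the libraries. Of these, 40 were higher and 1 lower without overlap, against 23.9% and 22.9% of all genes tested. At an unadjusted p-value under 0.05 by limma, 25 were higher and 1 lower, against 7.5% and 5.47% of all genes tested. The median difference was 0.29. None passed the adjusted threshold by limma. Their control libraries lay together, since Cont-IMQ replicate 2 minus replicate 1 had a median of 0.0081 and was above 0 in 26 of 46 genes, where it was above 0 in 33 of the 38 mitosis and G2/M genes. Both 7KC-IMQ libraries lay above Cont-IMQ replicate 2, in 45 and 44 of the 46 genes. The largest differences without overlap were in *Ccne1*, *Mcm3* and *Chaf1b*. *Ccne1*, which encodes the cyclin E1 of the entry into S phase, measured 3.75 and 4.46 FPKM in the controls, and 6.24 and 7.45 FPKM under 7KC (difference 0.62, standard error 0.14, limma, adjusted p = 0.354). *Mcm3*, a subunit of the replicative helicase, and *Chaf1b*, of the histone chaperone CAF-1, differed by 0.49 and 0.47. With the same FPKM sum, 11 (23.9%) were higher at an unadjusted p-value under 0.05 by limma, against 4.01% of all genes tested, and the median was 0.21. Fewer than 25 were higher in each fit without a library. Without 7KC-IMQ replicate 1 or 2, the share over all genes fell too. The median difference was 0.29 and 0.28 without Cont-IMQ replicates 1 and 2, and 0.29 and 0.26 without 7KC-IMQ replicates 1 and 2. The exception was *E2f2*, which was lower by 0.39 without overlap. Whether the S-phase genes and the mitosis and G2/M genes differed from each other in their response was not tested.

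**Figure D3:**
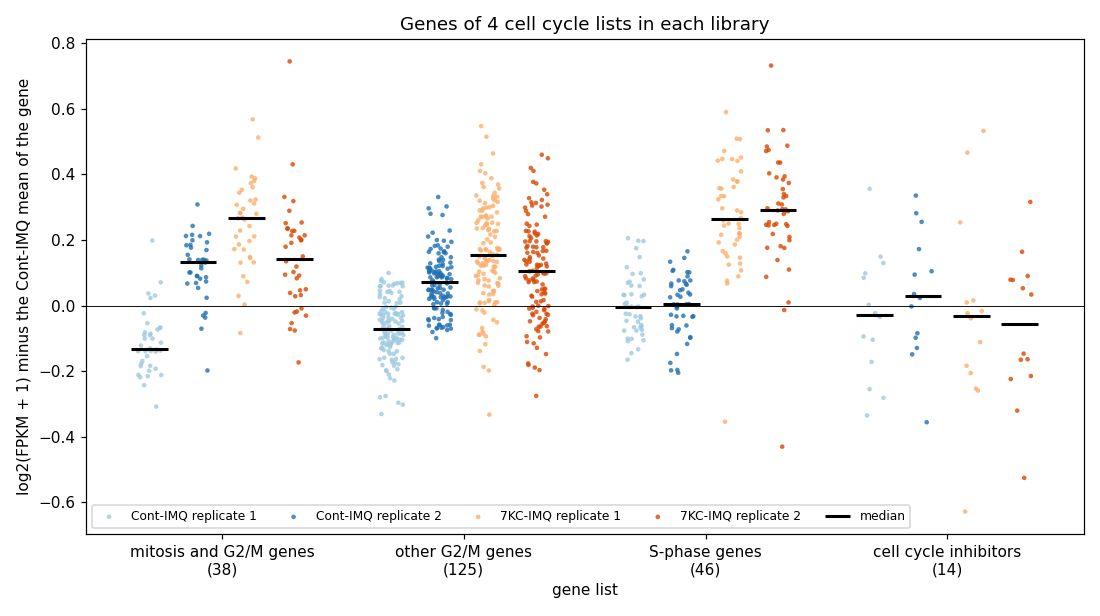
Each point is a gene, plotted as log2(FPKM + 1) minus its Cont-IMQ mean in each library, for the 38 members, 125 other G2/M genes, 46 S-phase genes and 14 cell cycle inhibitors; bars are medians. The medians of the members are -0.13, 0.13, 0.27 and 0.14 in Cont-IMQ replicates 1 and 2 and 7KC-IMQ replicates 1 and 2, whereas those of the S-phase genes are -0.0040, 0.0040, 0.26 and 0.29.

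Of 14 genes that restrain the cell cycle, 2 were higher and 5 lower without overlap (14.3% and 35.7%). Over all genes tested these shares were 23.9% and 22.9%. The median difference of the 14 genes was -0.031. At an unadjusted p-value under 0.05 by limma, 3 were lower and 0 higher, against 5.47% and 7.5% of all genes tested. None passed the adjusted threshold by limma. *Cdkn1b*, which encodes the CDK inhibitor p27, measured 19.9 and 22.8 FPKM in the controls, and 17.7 and 14.5 FPKM under 7KC (difference -0.39, standard error 0.13, limma, adjusted p = 0.366). *Btg1*, which encodes an antiproliferative protein, and *Rbl2*, which encodes the pocket protein p130 of quiescent cells, were lower by 0.24 and 0.26 without overlap. *Cdkn1a*, which encodes p21, had 195 and 225 FPKM against 204 and 217 FPKM, and *Cdkn1c*, which encodes p57, 5.05 and 8.62 FPKM against 6.51 and 7.05 FPKM. Neither separated the groups. Fewer were lower at that threshold without Cont-IMQ replicate 2 and without 7KC-IMQ replicate 1 or 2. In the fits without a 7KC-IMQ library, the share of all genes lower fell too. The median difference was -0.076 and -0.059 without Cont-IMQ replicates 1 and 2, and -0.057 and -0.031 without 7KC-IMQ replicates 1 and 2.

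Markers of growing hair follicles, whose matrix also divides, stood far apart in the control libraries. The summed FPKM of the 19 markers was 144 in Cont-IMQ replicate 1 and 1829 in replicate 2, and 520 and 465 in 7KC-IMQ replicates 1 and 2. No marker was at 0, and none separated the groups. *Krt71*, a keratin of the inner root sheath, measured 34.5 and 503 FPKM in the controls, and 135 and 112 FPKM under 7KC. Cont-IMQ replicate 1 was thus the lowest library for these markers as well as for most of the mitosis and G2/M genes. Cont-IMQ replicate 2 was the highest for the markers (median 1.46 above the Cont-IMQ mean, against -0.12 and -0.24 in the 7KC-IMQ libraries) but not for the members (0.13 against 0.27 and 0.14). The part of hair follicles in the members' differences was not tested. Melanocyte markers, 5 genes of the pigment cells of the hair bulb, followed the hair markers, with a summed FPKM of 45.3 and 149 in the Cont-IMQ group and 85.1 and 73.5 in the 7KC-IMQ group.

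Of the other marker lists, only those of neutrophils and endothelial cells had most of their markers separated in 1 direction. Over all genes tested, 23.9% were higher and 22.9% lower without overlap. Of 6 neutrophil markers tested, 5 were higher without overlap, with a summed FPKM of 2121 to 2578 in the Cont-IMQ group and 7221 to 13815 in the 7KC-IMQ group, most of it from *S100a8* and *S100a9*, which keratinocytes also express. *Elane*, which marks the dividing precursors of neutrophils, was listed at 0 in 7KC-IMQ replicate 1, and *Mpo*, which marks them too, at 0 in Cont-IMQ replicate 1. The 3 precursor markers tested summed to no more than 4.31 FPKM in any library. Of 5 endothelial markers, 4 were lower without overlap, with a median of -0.31 and -0.42 relative to the Cont-IMQ mean in the 7KC-IMQ libraries and a summed FPKM of 40.1 to 42.2, below that of both control libraries, of which the higher had 54.9. Of 8 basal keratinocyte markers, 2 were higher and 3 lower without overlap, and their summed FPKM overlapped (7291 to 8137 against 8112 to 8913). Of 5 T cell markers, 1 was higher and 2 lower without overlap. The T cell markers summed to 12.3 and 14.98 FPKM under 7KC and to 15.98 and 19.98 FPKM in the controls. The part of these cell types in the members' differences was not tested.

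**Figure D4:**
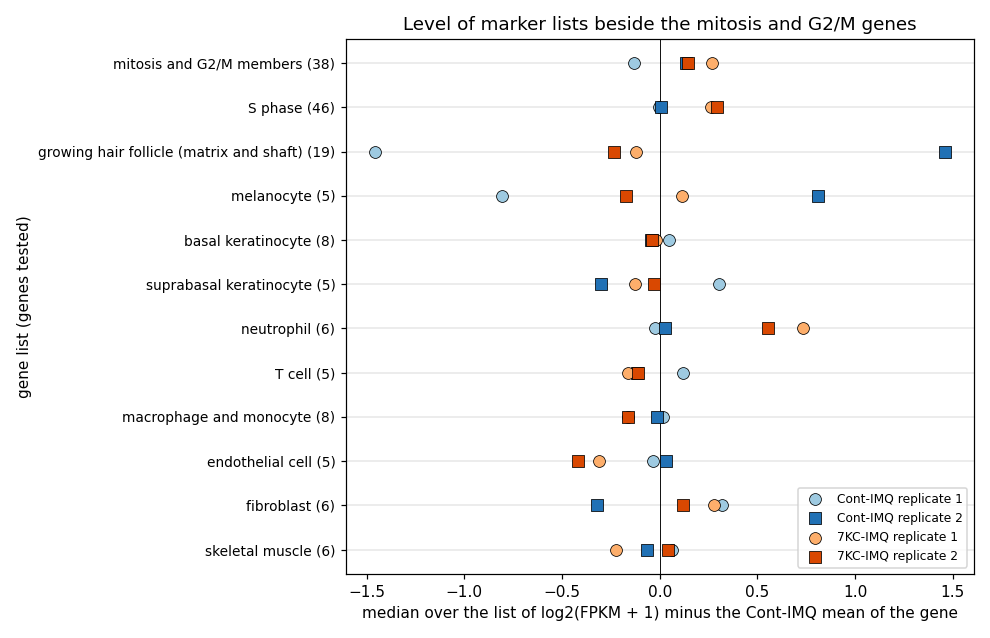
Median over each list of log2(FPKM + 1) minus the Cont-IMQ mean of the gene, by library, for the mitosis and G2/M members, the S-phase genes and 10 marker lists, with the number of genes tested in brackets. Blue marks are Cont-IMQ and orange marks 7KC-IMQ. The hair follicle list runs from -1.46 in Cont-IMQ replicate 1 to 1.46 in Cont-IMQ replicate 2, and the members from -0.13 in Cont-IMQ replicate 1 to 0.27 in 7KC-IMQ replicate 1.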

How the data were processed

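RNA of dorsal skin was sequenced in 4 libraries. Per the labels and the study's methods, the authors sequenced 75-base single ends and aligned them to mm10. The submitters' processing notes name TopHat2 2.1.1, Bowtie2 2.2.8, SAMtools 0.1.18 and Cuffdiff 2.2.1, whereas the study's methods name other versions of the aligners and of SAMtools, and Cufflinks in place of Cuffdiff. The authors deposited FPKM per gene symbol, and the gene models and the strand setting of the counting are not given in the sources used here.

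From the deposited FPKM, log2(FPKM + 1) was computed and fitted by limma 3.58.1 in R 4.3.3 (mean-variance trend, Benjamini-Hochberg adjustment) over 15896 genes, those whose mean FPKM over the libraries reached 0.1. FPKM is not a count, so no count model was used. The fit was tested on simulated data, whose differences were set larger than that of any member. That test therefore does not cover differences of the size reported here. Because of the pseudocount of 1, differences of low genes come out too small. Depth was estimated from the steps of low values of genes with 1 annotated transcript (longer than 600 bases, fragment length 200, tolerance 0.1 read); such estimates cover counting error only. Gene positions, exon overlaps and shared 75-base windows came from GENCODE M21 (GRCm38). Promoter windows came from RefSeq (GRCm38.p6).

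Values in every library are given for the members with the largest and the smallest absolute difference within each role. From the comparison lists, the text names the 5 other G2/M genes and the 3 S-phase genes with the largest difference without overlap, *Cdkn1a*, *Cdkn1b* and *Cdkn1c*, and inhibitors with an unadjusted p-value under 0.05. Other genes named were chosen after their values were seen. The members and lists were chosen with earlier results of these data known. The alternatives were another pseudocount, other filters, 3 scalings, no variance trend, a replicate block, each library left out, and only members without shared exons or sequence (chosen after seeing the data).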

Additional observations from a re-analysis of the deposited data

How the results depend on the processing

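No member passed an adjusted p-value of 0.05 under any alternative, by limma in each. With 2 libraries a group, limma pools the spread across genes, and a fit without a library assumes that the lone sample left varies like the other group. The median difference of the members stayed above 0 in every alternative run, from 0.089 to 0.32 with each library left out and 0.14 with the same FPKM sum, which shifted the median of all genes to -0.066.

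With the same FPKM sum, the members higher at an unadjusted p-value under 0.05 numbered 1 (6 in the reported fit), those higher without overlap 7 and lower 1 (19 and 0), the other G2/M genes higher 3 and lower 1 (9 and 0), and the S-phase genes higher 11 (25). In that fit, 4.01% of all genes tested were higher and 7.73% lower at an unadjusted p-value under 0.05, and 15% were higher and 32.1% lower without overlap. When the minimum mean FPKM was 1, 15 other G2/M genes (12%) were higher at that p-value and 0 lower, against 8.24% and 5.84% of all genes tested. With quantile normalization, 14 (11.2%) were higher and 1 lower, against 6.47% and 5.65%. Without a filter, 7 (5.6%) were higher and 1 lower, against 6.96% and 5.09%. With only the 25 members free of shared exons or sequence, chosen after seeing the data, 12 were higher without overlap, against 23.9% of all genes tested. Leaving out each library, counts at an unadjusted p-value under 0.05 ran from 1 to 16 for the members, 1 to 28 for other G2/M genes higher and 0 to 1 lower, 7 to 20 for S-phase genes higher and 0 to 1 lower, and 0 to 2 for inhibitors higher and 0 to 3 lower. Members higher without overlap ran from 20 to 34 and lower from 0 to 7.

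Some members changed sign. With quantile normalization, *Cdc25c* was 0.049, *Ttk* 0.0090, *Nusap1* 0.019 and *Anln* 0.024, and with the same FPKM sum, *Cenpf* was -0.012 and *Kif23* -0.039. Leaving out each library, the difference ran from -0.054 to 0.31 for *Ccnb2*, -0.17 to 0.14 for *Cdc25c*, -0.050 to 0.38 for *Foxm1*, -0.010 to 0.27 for *Nek2*, -0.072 to 0.029 for *Ttk*, -0.080 to 0.29 for *Cenpa*, -0.0090 to 0.30 for *Cenpe* and -0.12 to 0.22 for *Cenpf*. It ran from -0.16 to 0.23 for *Kif23*, -0.040 to 0.021 for *Nusap1*, -0.0078 to 0.48 for *Hmmr*, -0.13 to 0.13 for *Anln*, -0.13 to 0.31 for *Ect2*, -0.068 to 0.55 for *Ube2c*, -0.23 to 0.17 for *Pttg1* and -0.045 to 0.38 for *Mki67*. The cause was not tested.

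The labels give both groups replicates 1 and 2 and do not tie equal numbers to a common litter or day. The deviations of same-numbered libraries correlated at 0.065 over 15896 genes and -0.19 over the 38 members. With a replicate block, 4 of the 38 members were higher and 0 lower at an unadjusted p-value under 0.05 by limma. Over all genes tested in that fit, 6.15% were higher and 4.88% lower.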
